A study of Mus musculus with 10 samples.

Results

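The genes described here are 10 genes of the mast cell: the granule proteases Mcpt4, Cma1, Tpsb2, Tpsab1 and Cpa3, the IgE receptor chains Fcer1a and Ms4a2, the growth factor receptor Kit, the histamine-forming enzyme Hdc and the transcription factor Gata2. They were taken by gene symbol from 22180 named genes on the array, and each had 1 probe set. The tissue was the aorta of male mice, 11 weeks old, on a C57BL/6 background, profiled on Affymetrix Mouse Gene 2.0 ST arrays. One group of 5 biological replicates carried knockouts of both ApoE, the apolipoprotein that clears lipoprotein remnants from plasma, and the cytokine IL-17. The other group of 5 carried the ApoE knockout alone. Mice of both groups therefore lacked ApoE, and both were fed a high fat diet for 3 weeks from an age of 8 weeks. Double deficient mice came from a cross of an IL-17 knockout line into the ApoE knockout. The comparison sets double knockout against ApoE knockout aortas. A batch effect cannot be told apart from the absence of IL-17 in it, as given below.

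Mast cells are long-lived granulated cells of connective tissue. In arteries they lie mostly in the adventitia and in the fat around the vessel. Their granules store chymases, tryptases and a carboxypeptidase on the proteoglycan serglycin, together with histamine. Stem cell factor sustains them through the receptor Kit. Binding of IgE to its high-affinity receptor, made of an alpha, a beta and paired gamma chains, triggers release of the granules.

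Values are log2 array values, with 1 value per gene and array. As a guide to background, 1428 receptor genes for smell, pheromones and taste were used. Some of them may be expressed in the aorta, which was not checked. Of these genes, 95% had mean levels under 5.80, which is called the receptor gene level. In the double knockout aortas the median of these receptor genes per array ran from 3.74 to 4.21, against 3.52 to 3.73 in the ApoE knockout aortas. Quantile normalization, which gives all arrays 1 common distribution, is given beside the deposited values for members, and for other named genes and lists where it changes their calls or counts. The median change over all genes was 0.10 as deposited and -0.02 after that step. Neither scan dates nor batches are given in the sources used here, and the protocols given for ApoE knockout aortas speak of caspase-1 deficient and wild type mice rather than of IL-17, so a batch effect and the genotype effect cannot be told apart.

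Promoter sequences of members were examined because GATA2 is a GATA factor that mast cells need and is itself a member. In the RefSeq table of build GRCm38.p6, 8 of the 10 members had a window running from 250 bases before to 50 bases after the gene start. The letters GATAA were searched on both strands, so that TTATC marks a match on the opposite strand, and the matches do not overlap one another. The 8 members had 10 windows, with 2 each for Kit and Gata2, and the 2 windows of Kit overlap almost wholly. The letters occurred in 5 of these 10 windows, each of another member, and in 25.4% of all 32851 windows of the same length. The windows of these 5 genes are shown, with matches in capitals and each read 5′ to 3′ on the strand of the gene. A match is a description of the letters only.
Mcpt4 (chr14:56062261-56062560, minus strand): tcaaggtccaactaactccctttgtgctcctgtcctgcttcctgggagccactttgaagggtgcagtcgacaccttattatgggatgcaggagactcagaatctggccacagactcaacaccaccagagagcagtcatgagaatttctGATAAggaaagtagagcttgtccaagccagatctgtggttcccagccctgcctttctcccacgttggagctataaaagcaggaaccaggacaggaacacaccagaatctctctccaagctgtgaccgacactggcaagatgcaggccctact
Cpa3 (chr3:20242132-20242431, minus strand): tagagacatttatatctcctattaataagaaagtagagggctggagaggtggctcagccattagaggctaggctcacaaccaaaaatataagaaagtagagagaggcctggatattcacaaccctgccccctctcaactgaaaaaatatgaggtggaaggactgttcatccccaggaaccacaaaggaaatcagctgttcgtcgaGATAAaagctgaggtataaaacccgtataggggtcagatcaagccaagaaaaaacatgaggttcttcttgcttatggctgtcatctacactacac
Cma1 (chr14:55944626-55944925, minus strand): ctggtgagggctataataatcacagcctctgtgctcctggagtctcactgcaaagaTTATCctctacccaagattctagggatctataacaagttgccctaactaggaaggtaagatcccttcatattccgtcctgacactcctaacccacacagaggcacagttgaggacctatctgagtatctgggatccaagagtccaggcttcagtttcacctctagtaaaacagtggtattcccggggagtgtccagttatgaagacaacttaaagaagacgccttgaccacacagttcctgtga
Fcer1a (chr1:173227180-173227479, minus strand): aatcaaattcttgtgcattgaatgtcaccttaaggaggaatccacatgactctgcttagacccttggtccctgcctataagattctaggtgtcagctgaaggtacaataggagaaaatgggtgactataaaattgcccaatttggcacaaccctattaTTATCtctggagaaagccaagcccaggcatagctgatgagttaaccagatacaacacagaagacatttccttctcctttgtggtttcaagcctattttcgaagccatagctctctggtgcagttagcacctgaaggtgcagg
Ms4a2 (chr19:11623670-11623969, minus strand): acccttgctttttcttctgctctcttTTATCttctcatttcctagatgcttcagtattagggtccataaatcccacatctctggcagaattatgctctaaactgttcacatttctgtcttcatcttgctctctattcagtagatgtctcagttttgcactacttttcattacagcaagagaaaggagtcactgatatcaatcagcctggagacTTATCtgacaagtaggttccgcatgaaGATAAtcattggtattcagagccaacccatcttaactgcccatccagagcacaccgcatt

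The matches of Mcpt4 and Cpa3 began at positions -102 and -45 from the start, and those of Cma1 and Fcer1a at -194 and -92. Ms4a2 had 3 matches, at -224, -37 and -10. The match of Cma1 had neither A nor T directly before GATAA. With A or T required there, the letters were found in 4 members and in 18.6% of all windows. The windows of Kit, Hdc and Gata2 held no GATAA on either strand. Tpsb2 and Tpsab1 had no entry. Of the 5 genes with a GATAA match, Mcpt4, Cpa3, Cma1 and Fcer1a were lower in the double knockout and Ms4a2 was higher, as described next.

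Of the 5 member proteases, 4 were lower in the double knockout aortas, and Tpsab1 was not called. Of all 10 members, 6 fell (Mcpt4, Tpsb2, Cma1, Cpa3, Fcer1a and Gata2), 1 rose (Ms4a2) and 3 did not pass limma's test at an adjusted p of 0.05 (Tpsab1, Kit and Hdc). Across all genes tested, 30.3% passed in either direction, 7.53% as lower and 22.8% as higher. The members' median change was -0.60 on the log2 scale, beside 0.10 for all genes. After quantile normalization 6 members were lower and 0 higher, beside 11.2% lower and 8.94% higher among all genes. In a whole tissue, fewer mast cells and less RNA per mast cell cannot be told apart.

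**Figure D1:**
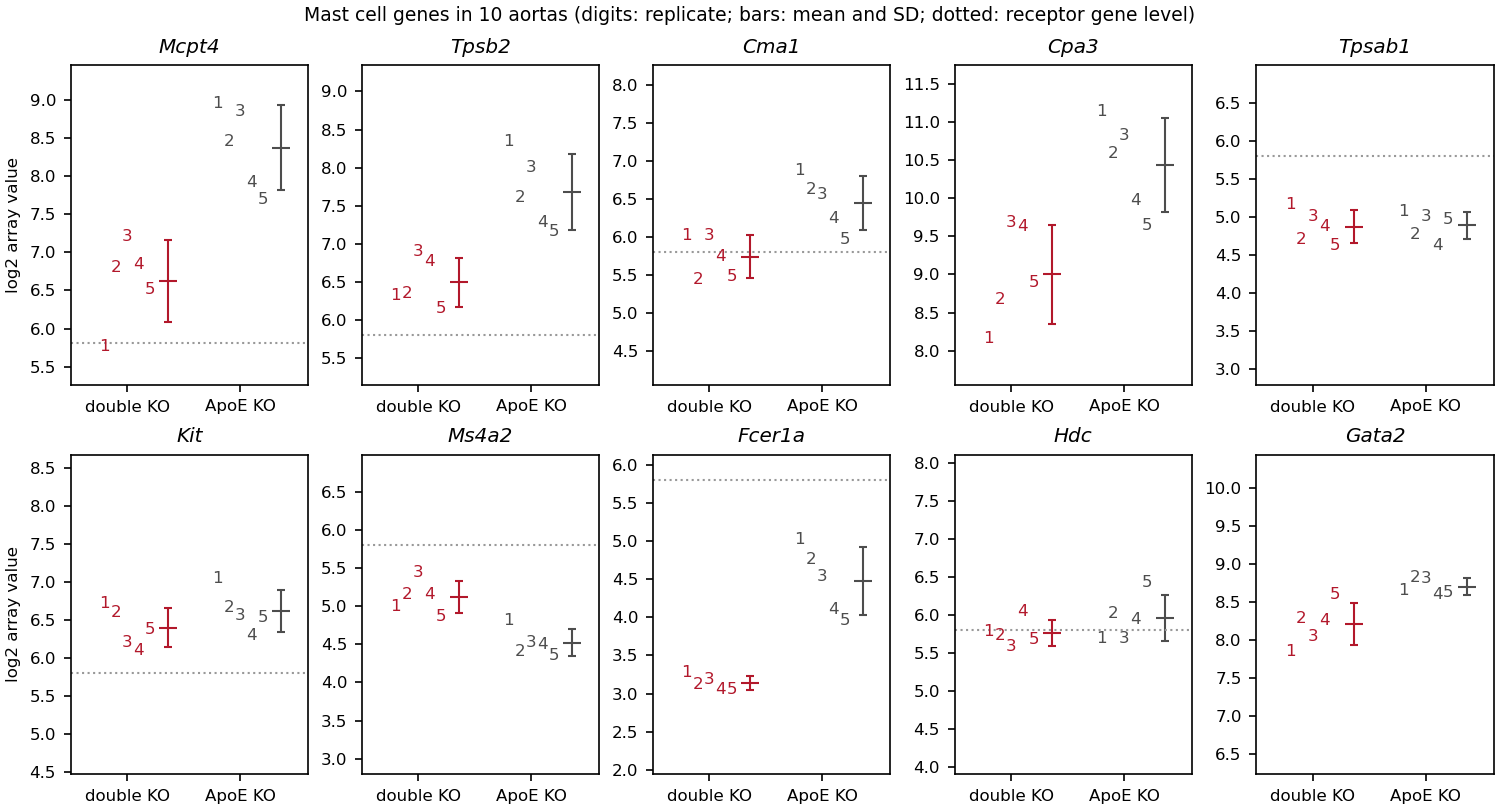
Log2 array values of the 10 mast cell genes in each aorta, with ApoE/IL-17 double knockout (double KO) left of ApoE knockout (ApoE KO). Digits are replicate numbers, bars show the mean and SD of 5 arrays, every panel spans the same range of log2 units, and the dotted line is the receptor gene level of 5.80, which lies outside some panels. Mcpt4, Tpsb2 and Fcer1a of the double knockout lie wholly below those of the ApoE knockout, while Ms4a2 lies wholly above.

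Chymases were examined first among the proteases. Mcpt4 encodes the connective tissue chymase regarded as the mouse counterpart of human chymase. It had log2 values of 5.76, 6.80, 7.21, 6.84 and 6.51 in double knockout aortas, against 8.95, 8.46, 8.86, 7.92 and 7.70 in ApoE knockout aortas. All 5 double knockout values lay below all 5 ApoE knockout values, and the value of double knockout replicate 1 was just under the receptor gene level. Mcpt4 was 3.37-fold lower (log2 change -1.75, SE 0.29, 95% interval -2.40 to -1.11, limma adjusted p = 0.0018, 5 arrays per group). Cma1, a chymase with elastase-like specificity in mice, had values of 6.03, 5.45, 6.02, 5.74 and 5.48 in double knockout aortas, against 6.87, 6.63, 6.56, 6.24 and 5.96 in ApoE knockout aortas. These groups overlapped, with 3 double knockout arrays below the lowest ApoE knockout array, replicate 5. Cma1 fell by 0.71 on the log2 scale (SE 0.18, limma adjusted p = 0.012, 5 arrays per group). Its double knockout mean of 5.74 lay under the receptor gene level.

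Cpa3, the mast cell carboxypeptidase that is stored together with Cma1, had values of 8.15, 8.68, 9.68, 9.62 and 8.89 in double knockout aortas, against 11.14, 10.59, 10.83, 9.97 and 9.64 in ApoE knockout aortas. The groups met at 1 point, where double knockout replicate 3 slightly exceeded ApoE knockout replicate 5. Cpa3 was 2.69-fold lower (log2 change -1.43, SE 0.34, 95% interval -2.17 to -0.68, limma adjusted p = 0.010, 5 arrays per group). Every Cpa3 value lay above the receptor gene level.

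Tryptases are trypsin-like proteases that work as tetramers held by heparin. Tpsb2, the main tryptase of connective tissue mast cells in C57BL/6 mice, had values of 6.31, 6.35, 6.90, 6.77 and 6.14 in double knockout aortas, against 8.35, 7.61, 8.00, 7.28 and 7.16 in ApoE knockout aortas. The groups did not overlap. Across all genes, 4.8% had every double knockout value below every ApoE knockout value, and 15.6% had the opposite; among the 10 members these counts were 3 (Mcpt4, Tpsb2 and Fcer1a) and 1 (Ms4a2). Tpsb2 was 2.27-fold lower (log2 change -1.18, SE 0.23, limma adjusted p = 0.0037, 5 arrays per group).

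Tpsab1, the neighboring tryptase gene on chromosome 17, did not follow Tpsb2. RefSeq lists it as a transcribed pseudogene in the C57BL/6J assembly GRCm38.p6, and C57BL/6 mice are known to lack its protein. It had values of 5.17, 4.71, 5.01, 4.87 and 4.62 in double knockout aortas, against 5.07, 4.78, 5.01, 4.63 and 4.97 in ApoE knockout aortas. Both groups lay below the receptor gene level and overlapped throughout. The change was -0.01 (95% interval -0.28 to 0.25, limma adjusted p = 0.93, 5 arrays per group). These tryptase genes have related sequences, and whether their probe sets share signal was not tested.

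**Figure D2:**
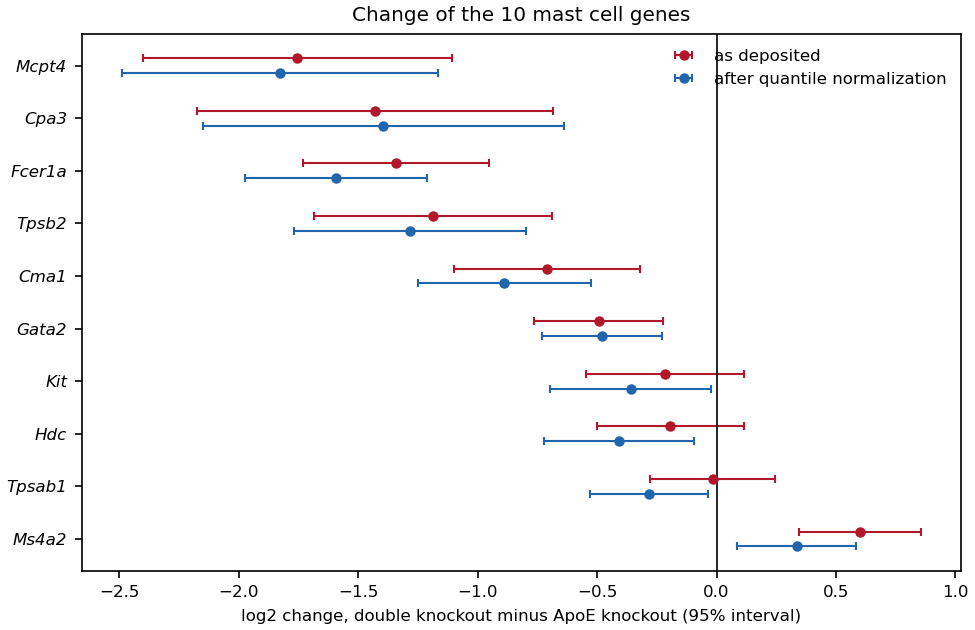
Log2 change of each mast cell gene, double knockout minus ApoE knockout, with its 95% interval from limma, as deposited (upper point of each pair) and after quantile normalization (lower point). Mcpt4, Cpa3, Fcer1a and Tpsb2 have the lowest values, and Ms4a2 is the 1 gene above 0, at 0.60 as deposited and 0.34 after normalization.

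Differences between pairs of proteases, 3 in all, were taken within each array and compared between genotypes. Mcpt4 minus Cma1 averaged 0.88 ± 0.65 in double knockout aortas and 1.92 ± 0.26 in ApoE knockout aortas (SD, n = 5 each, exact permutation p = 0.0079, adjusted p = 0.012 over the 3 differences, two-sided). Cma1 lay under the receptor gene level in 3 of 5 double knockout arrays, so this difference does not show that Mcpt4 transcripts fell by more than Cma1 transcripts. Tpsb2 minus Tpsab1 averaged 1.62 ± 0.31 in double knockout and 2.79 ± 0.41 in ApoE knockout aortas (SD, n = 5 each, exact permutation p = 0.0079, adjusted p = 0.012). Tpsab1 lay under the receptor gene level in every array and changed by -0.01, so this difference restates the change of Tpsb2 and is no separate result. An exact p of 0.0079 is the smallest that 5 against 5 arrays can give.

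Mcpt4 minus Cpa3 averaged -2.38 ± 0.33 in double knockout and -2.06 ± 0.10 in ApoE knockout aortas (SD, n = 5 each, exact permutation p = 0.063, adjusted p = 0.063). That difference of -0.33 missed the threshold. It passed without double knockout replicate 2 (-0.45, exact permutation adjusted p = 0.012) and after quantile normalization (-0.43, adjusted p = 0.040). Across the ApoE knockout aortas this difference varied little, between -2.19 and -1.94, while Mcpt4 itself ranged from 7.70 to 8.95. In the double knockout the difference ranged from -2.79 to -1.88.

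Chains of the IgE receptor showed opposite changes, both at low signal. Fcer1a encodes the alpha chain that binds IgE. It had values of 3.27, 3.12, 3.19, 3.05 and 3.06 in double knockout aortas, against 5.03, 4.76, 4.54, 4.10 and 3.96 in ApoE knockout aortas. The groups did not overlap, and the double knockout values lay close together (SD 0.09, against 0.44 in the ApoE knockout, n = 5 each). Fcer1a fell by 1.34 on the log2 scale (SE 0.18, limma adjusted p = 0.00054, 5 arrays per group). Its mean exceeded that of 25.3% of the receptor genes in the double knockout and of 74.9% in the ApoE knockout. Of the 1428 receptor genes, 12 were called lower and 425 higher, and 1 fell by as much as Fcer1a. No fold is given because both means lay below the receptor gene level.

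Ms4a2 encodes the beta chain, which amplifies the signal of the receptor. It had values of 4.99, 5.15, 5.44, 5.15 and 4.87 in double knockout aortas, against 4.82, 4.41, 4.52, 4.50 and 4.35 in ApoE knockout aortas. Every double knockout value was the higher one, yet both group means lay below the receptor gene level. Ms4a2 rose by 0.60 (SE 0.12, limma adjusted p = 0.0039, 5 arrays per group), and 228 of the 1428 receptor genes rose by as much or more. After quantile normalization the change was 0.34 and no longer passed (adjusted p = 0.057). Fcer1g, the gamma chain that many myeloid cells share, averaged 11.15 in double knockout and 11.37 in ApoE knockout aortas and did not pass (-0.22, SE 0.21, limma adjusted p = 0.43, 5 arrays per group). Fcer1g was singled out after its values were seen.

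Kit, the receptor for stem cell factor, had values of 6.72, 6.60, 6.20, 6.10 and 6.37 in double knockout aortas, against 7.04, 6.66, 6.55, 6.29 and 6.53 in ApoE knockout aortas. The groups overlapped broadly. Its change of -0.22 did not pass (95% interval -0.55 to 0.11, limma adjusted p = 0.29, 5 arrays per group). Kit passed in 1 alternative, with arrays centred on their medians (-0.42, adjusted p = 0.048), a step that by itself moved the median of all genes to -0.11. Melanocytes and blood progenitors also use Kit. Of 6 melanocyte markers, 0 were lower and 4 higher, and their mean level ran from 5.55 to 5.64 in the double knockout and from 5.11 to 5.23 in the ApoE knockout. These means lay below the receptor gene level, and 4 of the markers lay below it in both groups. Of the 4 higher markers, 3 were among those below it. Of 7 progenitor markers, 1 was lower and 1 higher. After quantile normalization 2 melanocyte markers were higher and 0 lower, and 2 progenitor markers were lower and 0 higher. Their part in the Kit signal was not tested.

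Hdc encodes histidine decarboxylase, which makes histamine in mast cells and also in some myeloid cells. It had values of 5.78, 5.73, 5.59, 6.04 and 5.68 in double knockout aortas, against 5.70, 6.02, 5.70, 5.94 and 6.43 in ApoE knockout aortas. The groups overlapped, and the change of -0.19 did not pass (95% interval -0.50 to 0.11, limma adjusted p = 0.31, 5 arrays per group). Within the ApoE knockout, Hdc was low in replicates 1 and 3, where Mcpt4 and Cpa3 were highest, and high in replicate 5, where they were lowest. Those Hdc values of replicates 1 and 3 lay under the receptor gene level, as did its double knockout mean of 5.76. The mean of 8 neutrophil markers was likewise low in ApoE knockout replicates 1 and 3 (6.44 and 6.40) and higher in replicates 2, 4 and 5 (7.79, 7.84 and 7.65). Neutrophil markers ran from 5.72 to 6.07 in the double knockout, where 6 of 8 were lower. Their part in the Hdc values was not tested.

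Gata2 encodes a transcription factor required for mast cells that endothelial cells and blood progenitors also express. It had values of 7.85, 8.29, 8.06, 8.26 and 8.60 in double knockout aortas, against 8.65, 8.83, 8.81, 8.60 and 8.63 in ApoE knockout aortas. Of the double knockout arrays, 4 lay below every ApoE knockout array. Gata2 was 1.41-fold lower (log2 change -0.49, SE 0.12, limma adjusted p = 0.013, 5 arrays per group). Among 8 endothelial markers, 2 were lower and 0 higher: the angiopoietin receptor Tek fell by 0.46 (SE 0.14) and the adhesion molecule Pecam1 by 0.28 (SE 0.09). Pecam1 was not called after quantile normalization (-0.25, adjusted p = 0.064) or without any 1 of 7 arrays, nor Tek without any 1 of 4 (double knockout 3 or 4, ApoE knockout 2 or 5). The mean of the endothelial markers ran from 9.95 to 10.36 in the double knockout and from 10.16 to 10.48 in the ApoE knockout. It was lowest in double knockout replicates 1 and 3, the replicates with the lowest Gata2. The part of endothelial cells in the Gata2 change was not tested.

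Mcpt4, Tpsb2 and Cpa3 varied together between aortas of 1 genotype. In the ApoE knockout, they placed the aortas in 1 and the same order, with replicate 1 highest, then 3, 2, 4 and 5. Cma1 and Fcer1a shared the ends of that order, replicates 1 and 5. In the double knockout, Mcpt4, Tpsb2 and Cpa3 were highest in replicate 3 and next highest in replicate 4. The same 2 arrays had the highest medians of receptor genes, 4.18 and 4.21, beside 3.74 to 3.89 in the other double knockout arrays. What that shift contributes to the order was not tested. Double knockout replicate 1 was lowest in Mcpt4 and Cpa3 but highest in Cma1, Fcer1a and Kit.

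As a description over the 10 arrays, each member was correlated with the mean of the other proteases after group means were removed. Pearson's r was 0.97 for Tpsb2, 0.87 for Cpa3, 0.81 for Mcpt4 and 0.67 for Cma1, but 0.29 for Tpsab1. Among the other members it was 0.80 for Ms4a2 and 0.73 for Fcer1a, near 0 for Kit (0.13) and Gata2 (0.04), and negative for Hdc (-0.59). By the deposited values, Ms4a2 varied with the proteases within groups while its change between groups ran the other way. Ms4a2 lay below the receptor gene level in every array, and what the shift of receptor genes contributes was not tested. All these points share arrays, and no test is attached to them.

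Markers of fat varied in a partly similar way. The mean of 5 brown fat markers was 10.04, 9.52, 10.31, 9.04 and 8.97 in double knockout aortas, against 11.22, 9.90, 10.63, 10.41 and 8.69 in ApoE knockout aortas. In the ApoE knockout it was highest in replicate 1, next in replicate 3 and lowest in replicate 5, as Mcpt4, Tpsb2 and Cpa3 were. In the double knockout it was highest in replicate 3, as they were, but lower in replicate 4 than in replicates 1 and 2. White fat markers, 5 measured, ran from 7.83 to 9.14 in the double knockout and from 8.27 to 10.05 in the ApoE knockout, with the same ApoE knockout replicates highest and lowest. None of these fat markers passed in limma with the deposited values, all arrays and group as the only term. Their medians were -0.52 for brown and -0.60 for white fat. With the replicate number as a block, Lep (-0.98), Plin1 (-0.60) and Elovl3 (-1.32) passed as lower in limma, with adjusted p-values of 0.045, 0.035 and 0.034. With arrays centred on their medians, Lep (-1.18, adjusted p = 0.035) and Retn (-0.78, adjusted p = 0.045) passed as lower. Without ApoE knockout replicate 5, Lep (-1.23), Elovl3 (-1.92), Cox8b (-0.85) and Cidea (-0.96) passed as lower, with adjusted p-values of 0.032, 0.024, 0.038 and 0.045. The part of fat in the protease changes was not tested. Of 7 fibroblast markers, 0 were lower and 1 was higher, with mean levels of 11.56 to 11.81 in the double knockout and 11.49 to 11.63 in the ApoE knockout.

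**Figure D3:**
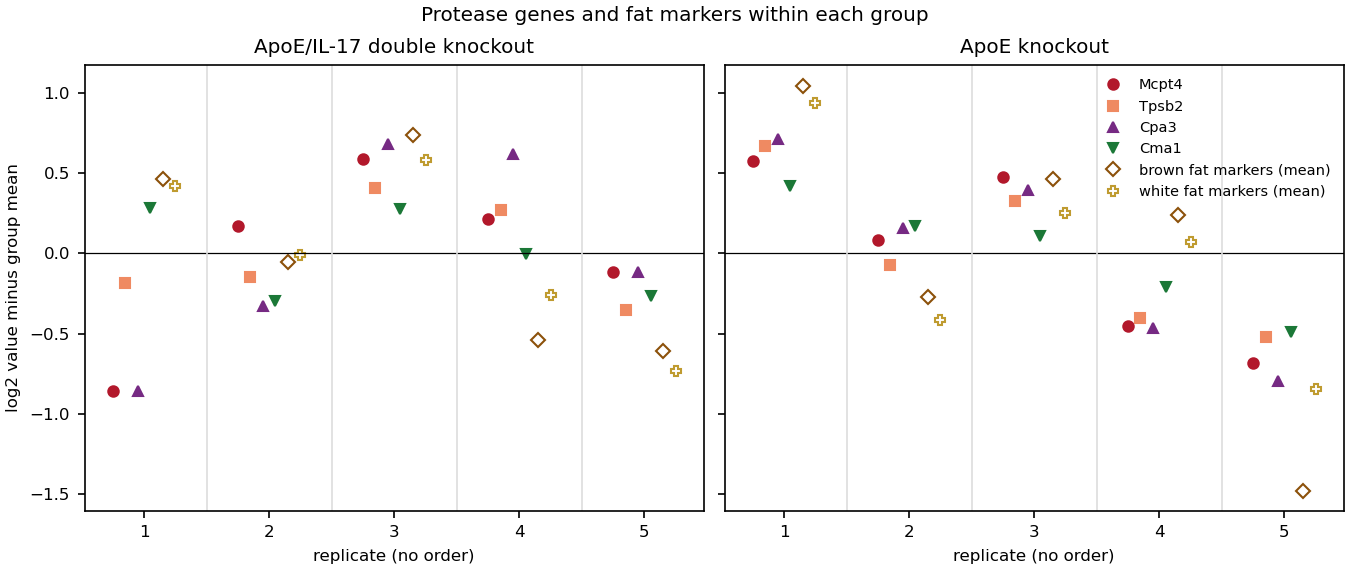
Log2 value minus the group mean for Mcpt4, Tpsb2, Cpa3 and Cma1 (filled symbols) and for the means of brown and of white fat markers (open symbols), in each of the 5 double knockout aortas (left) and 5 ApoE knockout aortas (right). In the ApoE knockout all of them are highest in replicate 1 and lowest in replicate 5; in the double knockout Mcpt4 and Cpa3 are lowest in replicate 1, where the fat markers are above their mean.

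Genes most like the proteases in this respect, members aside, were ranked by Pearson's r between group-centred values and the mean of the 5 proteases over 10 arrays, among named genes above the receptor gene level. The first 8 had r from 0.86 to 0.92. Htr2b, a serotonin receptor, led with r = 0.92 (Spearman's rho 0.94), followed by Krcc1, the microRNA gene Mirlet7c-1, the tumor suppressor Tsc1, the lipid kinase Pi4k2b, the mitochondrial gene ND4L, Nav3 and the RNA-binding protein gene Grsf1. None of them shared the size of the protease changes. Htr2b changed by 0.02 (limma adjusted p = 0.94, 5 arrays per group), Mirlet7c-1 was higher by 0.63 (adjusted p = 0.010) and Grsf1 fell by 0.33 (adjusted p = 0.025). Pi4k2b was higher by 0.36 (limma adjusted p = 0.010), but was not called with arrays centred on their medians (0.16, adjusted p = 0.16). After quantile normalization Mirlet7c-1 was not called (0.42, adjusted p = 0.066). Grsf1 was not called without double knockout replicate 1 (-0.31, adjusted p = 0.053) or ApoE knockout replicate 3 (-0.29, adjusted p = 0.063). These 8 were picked out of all such genes for their fit to 10 points.

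Other genes of the mast cell were called in both directions by the deposited values. Of 25 listed, 23 were measured, 6 were lower, 4 were higher and 13 did not pass, with a median change of 0.05. Across all genes, 7.53% were called lower and 22.8% higher. Mrgprb2, the mast cell receptor for basic secretagogues, averaged 4.84 ± 0.23 in double knockout and 5.54 ± 0.29 in ApoE knockout aortas (SD, n = 5 each). It fell by 0.70 (SE 0.15, limma adjusted p = 0.0059), below the receptor gene level in both groups. The related Mrgprb1, named after its values were seen, averaged 5.09 in double knockout and 5.97 in ApoE knockout aortas and fell by 0.88 (SE 0.22, limma adjusted p = 0.012). Srgn, the serglycin core protein that other leukocytes also make, fell by 0.44 (SE 0.09, limma adjusted p = 0.0061), with high levels in both groups (10.71 in the double knockout, 11.15 in the ApoE knockout). Gzmb, a granzyme also found in cytotoxic lymphocytes, was lower by 1.43 (SE 0.30, limma adjusted p = 0.0052). T cell markers, 3 of 6 lower, ran from 5.87 to 6.97 in the double knockout and from 6.44 to 8.87 in the ApoE knockout, and their part in the Gzmb change was not tested.

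Among the 4 higher genes of that list, Mcpt1, a chymase of mucosal mast cells, averaged 4.35 in double knockout and 3.84 in ApoE knockout aortas (0.51, SE 0.12, limma adjusted p = 0.012, 5 arrays per group). It lay below the receptor gene level, as did 3 of the 4. After quantile normalization 7 genes of the list were lower and 0 higher. With 1 array left out, between 1 and 3 genes were higher, and 1 without ApoE knockout replicate 3 or 5. Hpgds (-0.30), the prostaglandin D synthase of mast cells and other leukocytes, and the amine transporter Slc18a2 (-0.08) did not pass, with adjusted p-values of 0.41 and 0.63 in limma. Both were named after their values were seen.

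Signaling genes of the IgE receptor and Kit were lower in 6 of 18 measured and higher in 1, with a median of -0.31. Over all genes 7.53% were lower and 22.8% higher. The signaling list includes the receptor chain gene Fcer1g and the stem cell factor gene Kitl, which the list of growth signals also holds. Gab2, an adaptor needed for IgE receptor signaling, was the gene that rose, by 0.34 (SE 0.08, limma adjusted p = 0.0093, 5 arrays per group). Stat5b, a transcription factor activated by Kit and cytokines, fell by 0.35 (SE 0.08), the phosphatase gene Ptpn6 by 0.73 (SE 0.20) and the exchange factor Vav1 by 0.82 (SE 0.24). The count of lower genes was 2 without double knockout replicate 3 or ApoE knockout replicate 2 or 3, and 3 without double knockout replicate 1 or 4. With arrays centred on their medians 13 were lower and 0 higher. Vav1 was not called without double knockout replicate 1 or 3 or ApoE knockout replicate 2 or 3, with values between -0.77 and -0.66. These genes serve many leukocytes. B cell markers (3 of 5 lower), T cell markers (3 of 6 lower) and neutrophil markers (6 of 8 lower) moved beside them, and their part was not tested.

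Signals that sustain or recruit mast cells were lower in 1 of 10 measured genes and higher in 2, with a median of -0.03. The shares over all genes were 7.53% lower and 22.8% higher. Kitl, which encodes stem cell factor, averaged 8.43 ± 0.23 in double knockout and 8.51 ± 0.06 in ApoE knockout aortas (SD, n = 5 each, log2 change -0.09, limma adjusted p = 0.55). It was named after its values were seen. Il33, an alarmin that activates mast cells, fell by 0.46 (SE 0.13, limma adjusted p = 0.023, 5 arrays per group). Il33 was not called without double knockout replicate 3 (-0.43, adjusted p = 0.052) or ApoE knockout replicate 3 (-0.43, adjusted p = 0.053), or with the replicate number as a block (adjusted p = 0.053). Csf2, the growth factor GM-CSF, rose by 0.62 (adjusted p = 0.0026), and Il9, a mast cell growth cytokine, by 0.45 (adjusted p = 0.019). The mean of Csf2 was 5.65 in the ApoE knockout, below the receptor gene level, and 6.27 in the double knockout. Il9 lay below the receptor gene level and was not called after quantile normalization (0.17, adjusted p = 0.33), when 2 genes of the list were lower and 1 higher.

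Genes that receive or clear histamine were lower in 2 of 7 measured and higher in 3, with a median of 0.01. Over all genes 7.53% were lower and 22.8% higher. Hrh2, the receptor that relaxes smooth muscle, averaged 5.71 ± 0.14 in double knockout and 6.11 ± 0.14 in ApoE knockout aortas (SD, n = 5 each) and fell by 0.39 (SE 0.09, limma adjusted p = 0.0094). Hrh1 rose by 0.24 (adjusted p = 0.022), Hrh4 by 0.26 (adjusted p = 0.024) and the histamine-degrading oxidase Aoc1 by 0.48 (adjusted p = 0.0050), each from a mean below the receptor gene level in the ApoE knockout. After quantile normalization 2 genes were lower and 0 higher, and the sign of Hrh4 turned (-0.0092). Hrh1 was not called without double knockout replicate 3 or ApoE knockout replicate 2, nor Hrh4 without double knockout replicate 4 or ApoE knockout replicate 3 or 4. The count of lower genes was 1 without double knockout replicate 3 or 4 or ApoE knockout replicate 1 or 3.

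Known substrates and inhibitors of mast cell proteases were lower in 2 of 10 measured and higher in 2, with a median of 0.15. Over all genes 7.53% were lower and 22.8% higher. Mmp9, a gelatinase whose proenzyme chymase can activate, fell by 0.50 (SE 0.11, limma adjusted p = 0.0071, 5 arrays per group). Slpi, an inhibitor of serine proteases, fell by 0.74 (SE 0.20, adjusted p = 0.017). Mmp9 and Slpi are also neutrophil genes, and the neutrophil markers were lower beside them, as given above. Agt, the precursor of the angiotensins, rose by 0.31 (SE 0.08, adjusted p = 0.013), which did not pass after quantile normalization (0.14, adjusted p = 0.23). Serpina1a rose by 0.43 (adjusted p = 0.019) below the receptor gene level and lost its call under quantile normalization (0.16, adjusted p = 0.34). After that step 2 genes of the list were lower and 1 was higher, Mmp2 (0.29, limma adjusted p = 0.042). Mmp2 was not called as deposited (0.26, limma adjusted p = 0.056).

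Basophils share the IgE receptor and Hdc with mast cells. Of 10 basophil and eosinophil markers, 9 lay below the receptor gene level in both groups, among them Mcpt8 (4.50 in the double knockout, 4.60 in the ApoE knockout), Prss34 (5.33 in the double knockout, 5.39 in the ApoE knockout) and Cd200r3 (4.58 in the double knockout, 4.85 in the ApoE knockout), which mark basophils and were singled out after their values were seen. By the deposited values 0 of the 10 were lower and 2 higher, the eosinophil genes Epx (0.47, limma adjusted p = 0.0051, 5 arrays per group) and Il5ra (0.28, adjusted p = 0.010). After quantile normalization 3 were lower and 0 higher, and the 3 were the basophil markers Mcpt8 (-0.37, adjusted p = 0.011), Prss34 (-0.31, adjusted p = 0.0096) and Cd200r3 (-0.54, adjusted p = 0.011).

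**Figure D4:**
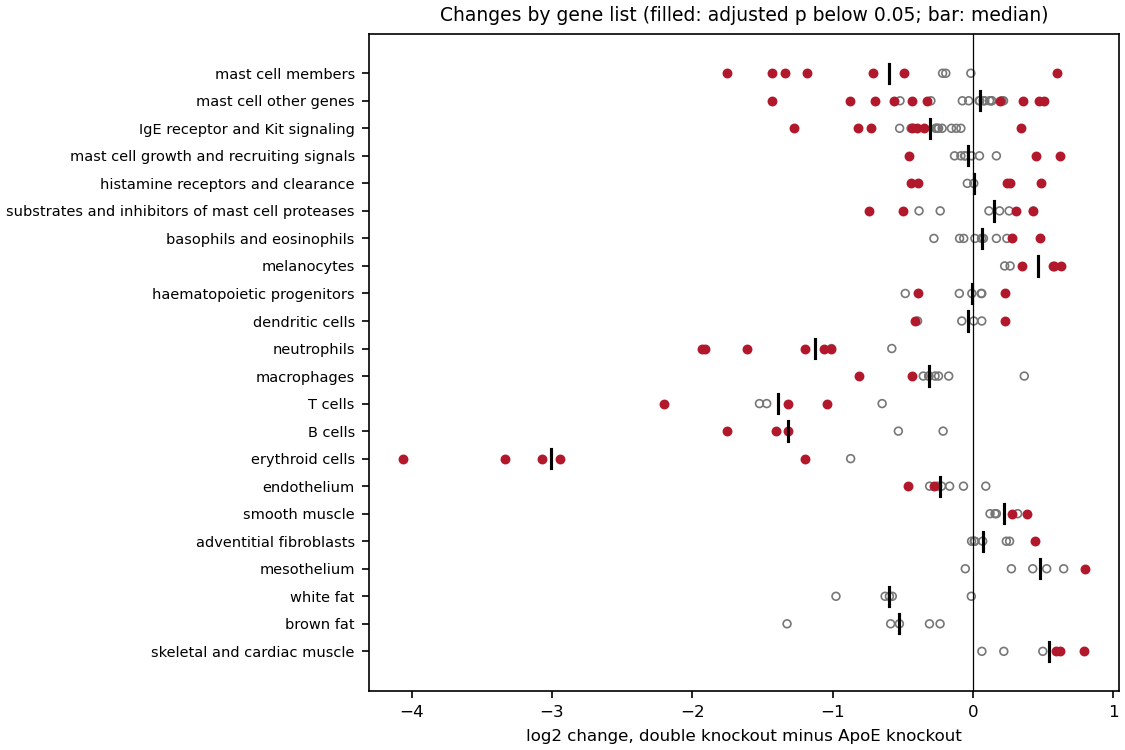
Log2 change, double knockout minus ApoE knockout, of every measured gene in the member list and the 21 other lists, with filled points for limma adjusted p below 0.05 and a bar at each median. The mast cell members have a median of -0.60, beside -1.13 for neutrophils, -1.32 for B cells, -1.39 for T cells and -3.01 for erythroid markers.

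Among lists of other blood cells, erythroid, neutrophil and B cell markers had mean levels that did not overlap between groups. Of the erythroid markers, 5 of 6 were lower in the double knockout, with mean levels of 6.88 to 7.56 in the double knockout and 9.38 to 10.31 in the ApoE knockout. B cell markers ran from 6.02 to 6.43 in the double knockout and from 7.05 to 7.69 in the ApoE knockout. Macrophage markers, 2 of 9 lower, overlapped between groups (9.36 to 10.09 in the double knockout, 9.68 to 10.10 in the ApoE knockout). After quantile normalization 7 of 8 neutrophil, 5 of 6 T cell, 4 of 5 B cell and 2 of 9 macrophage markers were lower. With 1 array left out, the counts of lower markers ran from 6 to 8 for neutrophils, 2 to 6 for T cells, 3 to 4 for B cells and 1 to 4 for macrophages. In the ApoE knockout the erythroid mean was lowest in replicate 1 and highest in replicate 5, where Mcpt4, Tpsb2 and Cpa3 were highest and lowest. That mean includes Bpgm, which did not pass and was 9.96 in replicate 5 and 7.31 in replicate 2. Slc4a1, Epb42, Slc25a37 and Car2 were highest in replicate 2, and Hbq1a in replicate 5. These erythroid genes were named after their values were seen. How far these lists and the mast cell members move together was not tested.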

How the data were processed

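The deposited table holds log2 values, 1 for each probe set on each array, as the authors processed them; their background correction and normalization are not stated in the labels. That the base is 2 rests on the range the values span. Limma is named, without version or role, per the submitters' processing notes. Gene names came from the platform annotation, in which 23521 of 41345 probe sets had 1 symbol, and the one with the highest mean served each of 22180 genes. Genes were fitted with limma 3.58.1 in R 4.3.3 (lmFit, eBayes, group as the only term, two-sided, Benjamini-Hochberg adjustment over all genes at 0.05), with no filter on dim genes. All 10 arrays were used. The titles call the samples biological replicates; whether each is 1 animal is not stated in the labels, so p-values measure the spread between these samples. The 3 differences were compared by exact permutation over 252 assignments. The code was tested on simulated data. Figures were drawn with matplotlib 3.10.9. Changes are double knockout minus ApoE knockout.

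The members and lists were chosen with earlier results of these data known. Named genes are all members, up to 4 of each list with the smallest p, and the 8 genes most like the proteases. The lists also covered dendritic cells, smooth muscle, mesothelium and skeletal and cardiac muscle. Promoters come from RefSeq, build GRCm38.p6. Alternatives covered normalization, centring, a filter on dim genes, averaging of probe sets, a trended and a robust prior, weights for arrays, a replicate block, a stricter threshold and leaving out each array. The number of arrays limits the precision.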

Additional observations from a re-analysis of the deposited data

Results flagged for a closer look

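Within 164 sets of 5 arrays examined, 7 held 1 array whose gap to its neighbor exceeded Dixon's limit of 0.71 of the range, and chance alone gives about 1 in 20. The difference Mcpt4 minus Cma1 was -0.26 in double knockout replicate 1, against 1.03 to 1.35 in the other double knockout aortas, since this aorta had the lowest Mcpt4 and the highest Cma1 of its group. The mean of the basophil and eosinophil markers was highest in the same replicate, at 5.27, with 5.17 next. In double knockout replicate 2 the melanocyte mean was lowest at 5.55, with 5.62 next, and the mean of skeletal and cardiac muscle markers was highest at 7.24, with 6.74 next. Mmp9 was lowest at 7.21 in ApoE knockout replicate 3, with 7.57 next. Siglecf, an eosinophil receptor, was highest at 5.95 in ApoE knockout replicate 2, with 5.45 next. Cdh5, an endothelial cadherin, was lowest at 11.45 in ApoE knockout replicate 1, with 11.75 next.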

How the results depend on the processing

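Mcpt4, Tpsb2 and Fcer1a kept their calls and direction under each alternative that tested them (the filter on dim genes removed Fcer1a), at -1.96 to -1.54, -1.39 to -1.02 and -1.59 to -1.20. Cma1, Cpa3 and Gata2 kept theirs except at an adjusted p of 0.01, where 3 members were lower. The count of 6 lower and 1 higher did not change when any array was left out. Of members, 0 were called higher after that filter, which removed Ms4a2 too, and after quantile normalization. Over all genes, 6721 calls became 3494 with the filter, 4461 after quantile normalization and 2970 at an adjusted p of 0.01, and ran from 5056 to 7022 without 1 array. The share of calls that were higher was 75.1% as deposited, 44.4% after quantile normalization and 22.8% of 7310 with arrays centred on their medians. Mcpt4 minus Cpa3 passed after quantile normalization (-0.43) and ran from -0.45 to -0.22 with each array left out. Without 1 array, Mcpt4 minus Cma1 ran from -1.16 to -0.76 and Tpsb2 minus Tpsab1 from -1.32 to -1.05, both still called. Hrh4 turned to -0.0092 after quantile normalization. The cause of these shifts was not tested. With the replicate number as a replicate block 6594 genes were called, 6 members lower and 1 higher. Same-numbered arrays correlated at -0.13 to 0.26, and 3 of 5 matched best with their own number, so the numbers were not taken as pairs. Signal near the receptor gene level or below it limits Fcer1a, Ms4a2, Tpsab1 and Hdc, and Cma1 in the double knockout.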

Other observations

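Double knockout replicate 1 differed from the other 4 double knockout aortas in how the mast cell genes related to each other. It had the lowest Mcpt4 (5.76) and Cpa3 (8.15) of the 10 aortas, while its Cma1 (6.03), Fcer1a (3.27), Kit (6.72) and Tpsab1 (5.17) were the highest of its group. Slc18a2, which loads amines into granules, was also highest there, at 6.53, against 5.85 to 6.31 in the other double knockout aortas and 6.21 to 6.34 in the ApoE knockout. These genes were picked after their values were seen, and nothing was tested.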
